A study of Mus musculus with 20 samples.

Results

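The Dlk1-Dio3 domain of mouse chromosome 12 holds a long run of miRNA genes between the protein-coding genes Dlk1 and Dio3, and its miRNAs were followed here through chemically induced skin tumours of FVB/N mice, an inbred strain. The members were all mature miRNAs whose deposited mm9 coordinates start between 110500000 and 111600000 on that chromosome. This gave 115 of the 1137 mature miRNAs in a table of 2127 small RNA features, and they are the arms of 60 hairpins. The table holds 20 small RNA libraries from skin biopsies, 5 in each of 4 groups. Healthy skin was treated with acetone (libraries 2, 3, 4, 5 and 7). The other groups had received DMBA, a mutagen that starts tumours, and PMA, a phorbol ester that promotes them: hyperplastic skin, which is thickened but holds no tumour (libraries 1, 2, 5, 7 and 8), papillomas, which are benign tumours (1, 3, 4, 5 and 6), and cutaneous squamous cell carcinomas, here cSCC (1, 2, 3, 4 and 6). Values below are given in that library order. The labels give no age, sex, dose or time, and they do not say which biopsies came from the same animal, so the p-values measure only the spread between these libraries. Acetone skin differs from the other groups both in DMBA and in PMA, and those agents cannot be told apart here.

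The domain is imprinted, which means that only the copy from a given parent is active. Dlk1, Rtl1 and Dio3 are read from the paternal chromosome, and the noncoding RNAs Meg3, Rian and Mirg, together with most of the miRNAs, from the maternal one. Most of the miRNAs lie in long transcripts of the maternal chromosome and are abundant in embryo, placenta and brain. A miRNA recognises target mRNAs mainly through its seed, bases 2 to 8 from its 5′ end. Each hairpin gives a 5p arm and a 3p arm, of which usually the more abundant enters the silencing complex.

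RefSeq (GRCm38.p6) gave a mature sequence for 104 of the 115 members. Of these, 97 lie on the plus strand and 7 on the minus strand. By the GENCODE annotation of GRCm38, 11 plus-strand members lie opposite Rtl1, 24 inside Mirg, 6 inside Rian and 2 inside Meg3, while 2 lie inside Dio3os on the minus strand. The sequences below are those of the 4 members with the highest called fold changes in cSCC against healthy skin among members of at least 20 mean counts, with the seed in capitals. The members are miR-541-5p (chr12:110980631-110980657) and miR-409-3p (chr12:110981413-110981436) in Mirg, miR-494-3p (chr12:110953576-110953599), and miR-665-3p (chr12:110824577-110824598) of the Rtl1 region, all in mm9 and on the plus strand. The deposited intervals are 2 bases longer than the mature sequence for 102 of the 104 matched members.
miR-541-5p: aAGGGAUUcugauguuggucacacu
miR-494-3p: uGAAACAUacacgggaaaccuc
miR-409-3p: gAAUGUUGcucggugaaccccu
miR-665-3p: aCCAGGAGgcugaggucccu

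The next sequences are those of the 5 most abundant of the remaining members, none of which passed the test in cSCC against healthy skin. These are miR-127-3p (chr12:110831097-110831120), miR-136-5p (chr12:110833540-110833563) and miR-337-3p (chr12:110824058-110824080) of the Rtl1 region, and miR-379-5p (chr12:110947274-110947296) and miR-411-5p (chr12:110948399-110948421) at the start of the run towards Mirg. None of these 9 seeds was found in a miRNA outside the locus among the 884 table miRNAs that were matched to a sequence.
miR-127-3p: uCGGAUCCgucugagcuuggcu
miR-136-5p: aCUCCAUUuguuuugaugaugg
miR-337-3p: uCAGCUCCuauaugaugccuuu
miR-379-5p: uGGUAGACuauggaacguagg
miR-411-5p: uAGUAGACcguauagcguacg

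The locus holds many seeds rather than 1 family: the 104 sequences carry 98 distinct seeds. Only 6 seeds are shared, each by 2 members. The seed of miR-379-5p is also that of miR-1193-5p, and the seed of miR-376b-5p is also that of miR-376c-5p. A further pair, miR-370-5p and miR-1193-3p, comes from different hairpins of the locus. Outside the locus, 6 members had a seed partner; miR-495-3p shares its seed with miR-1192, and miR-410-3p with miR-344d-3p and miR-344e-3p. The pairs below show 2 of the shared seeds.
miR-379-5p: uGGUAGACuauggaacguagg
miR-1193-5p: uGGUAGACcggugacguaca
miR-376b-5p: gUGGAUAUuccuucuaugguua
miR-376c-5p: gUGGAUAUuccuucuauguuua

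Counts assigned to mature miRNAs ranged from 1060615 to 6904298 per library. Papilloma libraries were the shallowest, with at most 2370313, while healthy libraries had at least 2884177 and cSCC libraries 1614803 to 2903657. The members had 3449 to 16429 counts per library together. As a share of all miRNA counts, the locus made up 0.164 ± 0.0619% in healthy skin (SD, n = 5), 0.288 ± 0.0494% in hyperplastic skin, 0.374 ± 0.0470% in papillomas and 0.319 ± 0.0928% in cSCC. Every library of the 3 treated groups was above every healthy library. The lowest share was that of healthy library 5, at 0.0701%, and without it the healthy mean was 0.188%. The share depends on what the other miRNAs do: in cSCC it was 0.591% when the 5 most abundant miRNAs were left out of the total, against 0.262% in healthy skin.

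The members were mostly rare. Of the 115, 54 had a mean of at least 20 counts per library and 15 a mean of at least 50 CPM, and 87 had a count in all 20 libraries. Levels are given as CPM, the count of a miRNA per 1000000 miRNA counts of its library after scaling by edgeR's TMM factors over all miRNAs. A read covers a whole mature miRNA, so no length correction was made; how well each sequence enters a library was not tested. After a filter on low counts 84 members and 850 miRNAs in all were tested, and 31 members were not. Because that filter keeps a miRNA that is high in any group, counts over the 84 describe the members tested and not the locus.

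The 12 most abundant members, in order of mean CPM, were miR-541-5p, miR-127-3p, miR-379-5p, miR-411-5p, miR-337-3p, miR-409-3p, miR-136-5p, miR-494-3p, miR-1247-5p, miR-329-3p, miR-434-3p and miR-666-3p. In healthy skin miR-136-5p led with 142.1 ± 55.7 CPM (SD, n = 5), followed by miR-127-3p at 135.9 ± 52.2, miR-379-5p at 135.0 ± 59.9 and miR-411-5p at 131.4 ± 73.6. These 4 levels differed by less than their spread. In cSCC the order was another: miR-541-5p led with 340.4 ± 55.6 CPM, then came miR-409-3p at 242.6 ± 24.6 and miR-494-3p at 202.8 ± 76.5, and miR-136-5p stood at 88.7 ± 33.9.

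**Figure D1:**
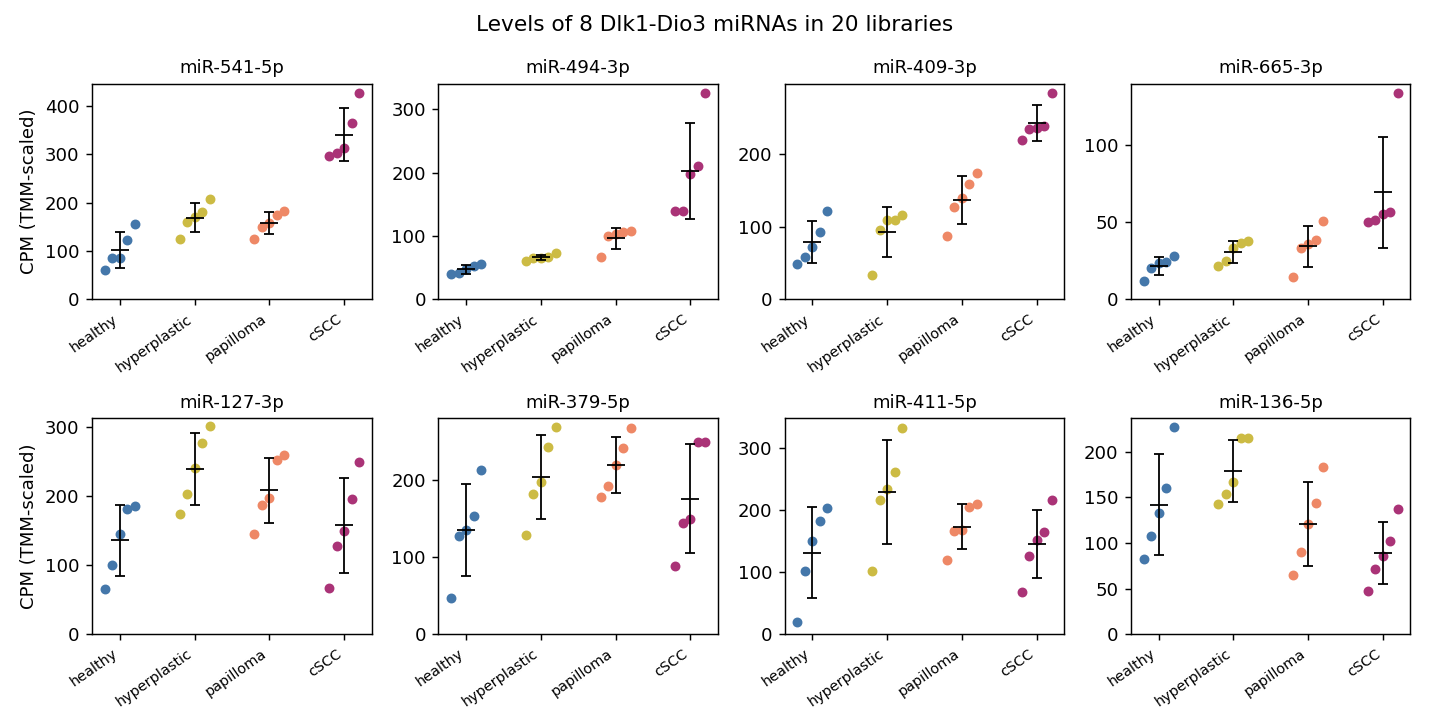
Levels in CPM, TMM-scaled, of 8 locus miRNAs; each point is a library, 5 per group and ordered by value, and the black bars give the mean and SD. For miR-541-5p, miR-494-3p and miR-409-3p every cSCC library lies above every library of the other groups, while miR-127-3p, miR-379-5p and miR-411-5p overlap between the groups.

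In cSCC against healthy skin, 25 of the 84 members tested rose and none fell (edgeR's quasi-likelihood test, Benjamini-Hochberg adjusted p under 0.05 over all 850 miRNAs). Among all 850 miRNAs tested, 26.2% rose and 21.3% fell, so the members' 29.8% upward is near the background. At an unadjusted p under 0.05, 1 member was lower, miR-136-5p, and DESeq2 called the same member lower. The median log2 fold change was 0.74 over the members tested and 0.35 over all miRNAs. Of the 25, 17 had a mean of at least 20 counts. Without healthy library 4, cSCC library 1 or cSCC library 6, the number of members that rose was 16, 16 and 14.

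The rise was led by miR-494-3p, a miRNA from the run of hairpins beginning with miR-379. Its level was 39.4, 52.8, 56.5, 41.8 and 47.3 CPM in the healthy libraries and 326, 211, 140.1, 198 and 139 CPM in cSCC. In papillomas it was 107, 67.3, 100.4, 103 and 106 CPM, and in hyperplastic skin 67.2, 65.5, 73.04, 64.8 and 61.1 CPM. The cSCC libraries were all above the rest, and the treated libraries were all above the healthy ones. The log2 fold change in cSCC against healthy skin was 2.09 ± 0.26 (SE), with an adjusted p of 4.09e-07 in edgeR's quasi-likelihood test. The rise was also visible before scaling: cSCC libraries had 875, 525, 371, 442 and 284 counts, although they held at most 2903657 miRNA counts in all, and the healthy libraries, with 153, 176, 161, 131 and 137, held 2884177 to 4921719.

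Among members of at least 20 mean counts the next was miR-541-5p, the 5p arm of a hairpin in Mirg. Healthy libraries had 60.5, 156, 123, 85.8 and 86.3 CPM and cSCC libraries 302, 365, 313, 427 and 295 CPM. Hyperplastic libraries had 169.7, 159, 180.5, 207 and 125.7 CPM and papillomas 183, 149, 174, 158 and 124.2 CPM. The cSCC libraries stood alone above the 15 others, with a log2 fold change of 1.73 ± 0.26 (SE) against healthy skin and an adjusted p of 6.15e-06 in edgeR's quasi-likelihood test.

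In the neighbouring hairpin of Mirg, miR-409-3p was also higher in cSCC. Healthy skin gave 58.7, 92.4, 121, 48.8 and 72.5 CPM, and cSCC 285, 239, 234, 219.7 and 236 CPM. Papillomas had 139, 126.9, 159, 174 and 87.3 CPM and hyperplastic libraries 94.9, 110.0, 116, 109 and 33.6 CPM. All cSCC libraries were above all others, and hyperplastic library 8 was far below its group. The log2 fold change in cSCC against healthy skin was 1.62 ± 0.31 (SE; adjusted p = 0.000135, edgeR's quasi-likelihood test).

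From the Rtl1 region, miR-665-3p reached 20.1, 23.7, 24.6, 12.1 and 27.96 CPM in the healthy libraries and 134, 50.2, 56.6, 51.5 and 55.2 CPM in cSCC. In hyperplastic skin it reached 21.9, 37.8, 33.1, 25.1 and 36.8 CPM and in papillomas 14.3, 33.04, 38.4, 35.9 and 51.03 CPM. Healthy and cSCC libraries did not overlap, but cSCC library 1 was far above the other cSCC libraries, and papilloma library 6 lay within the cSCC range. The log2 fold change was 1.68 ± 0.34 (SE; adjusted p = 0.000266, edgeR's quasi-likelihood test). A rarer member, miR-370-3p from a hairpin in Rian, went from 5.49 ± 2.04 CPM (SD, n = 5) in healthy skin to 14.02 ± 2.60 CPM in cSCC, a log2 fold change of 1.34 ± 0.37 (SE; adjusted p = 0.00446, edgeR's quasi-likelihood test).

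These 5 members, miR-494-3p, miR-541-5p, miR-409-3p, miR-665-3p and miR-370-3p, passed the threshold in cSCC against healthy skin under every alternative in which they were tested. Raw counts, with no scaling, were higher in every cSCC library than in every healthy library for 5 of the 84 members (5.95%): miR-494-3p, miR-541-5p, miR-409-3p, miR-665-3p and the rare miR-1197-3p. That share is close to the 5.29% of all miRNAs tested. After scaling, 13 of the 84 members did not overlap and were higher in cSCC, against 12.8% of all miRNAs.

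Other named members that rose in cSCC against healthy skin were miR-376b-3p, with a log2 fold change of 1.33 ± 0.43 (SE; adjusted p = 0.0140, edgeR's quasi-likelihood test), and miR-431-5p, with 1.27 ± 0.43 (adjusted p = 0.0183). The call of miR-376b-3p was lost in 5 of 25 alternatives, among them without healthy library 4, cSCC library 1 or cSCC library 6. That of miR-431-5p was lost in 6 of 25, among them without healthy library 5 or cSCC library 1, 4 or 6. For miR-496-3p the value was 0.84 ± 0.32 (adjusted p = 0.0354), and it was lost in 13 of 25 alternatives. The 3p arm miR-541-3p had 0.81 ± 0.34 (adjusted p = 0.0483) and was lost in 19 of 25.

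The remaining abundant members did not pass in cSCC against healthy skin. For miR-127-3p, whose hairpin lies opposite Rtl1, healthy libraries had 182, 186, 100.1, 66.01 and 145.6 CPM and cSCC libraries 249.5, 66.7, 127.2, 149.9 and 196 CPM. Hyperplastic libraries had 240.4, 278, 174, 203.1 and 301 CPM and papillomas 252, 259.8, 198, 188 and 145.7 CPM. All 4 groups overlapped, and the log2 fold change in cSCC was 0.21, with an adjusted p of 0.591 in edgeR's quasi-likelihood test. The values were 0.38 (0.343) for miR-379-5p, 0.15 (0.781) for miR-411-5p and 0.19 (0.669) for miR-337-3p, with the adjusted p of the same test in parentheses. For miR-434-3p it was 0.65 ± 0.35 (SE; adjusted p = 0.125), for miR-666-3p 0.43 ± 0.26 (0.173), for miR-382-5p 0.75 ± 0.36 (0.0893) and for miR-433-3p 0.99 ± 0.53 (0.125). For miR-381-3p and miR-410-3p, later in the run, it was 0.01 ± 0.39 (0.989) and 0.55 ± 0.30 (0.134).

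How such members are read depends on the scaling. With TMM factors taken only from the 294 miRNAs of at least 50 CPM, the median of all miRNAs in cSCC against healthy skin moved by 0.68 on the log2 scale, from 0.35 to 1.03, and that of the members tested from 0.74 to 1.37. Relative to the median of all miRNAs, the members' median was thus 0.39 higher in the first case and 0.33 in the second. Under that scaling 59 members passed upward, beside 50.7% of all miRNAs. Among those were miR-127-3p at 0.87 (adjusted p = 0.0186, edgeR's quasi-likelihood test), miR-379-5p at 1.02 (0.0118) and miR-337-3p at 0.83 (0.0346). Each was close to or below the shifted median of 1.03. That median is over all 850 miRNAs tested, most of which were under 50 CPM and so rarer than these members. With TMM factors over all miRNAs, the difference between the members' median and that of all miRNAs was 0.19 without cSCC library 6, 0.20 without healthy library 5, 0.21 without healthy library 7 and 0.17 without the filter on low counts. It was larger in a fit of the 294 abundant miRNAs alone, 15 of them members. There the members' median was 1.07 and that of all 294 was 0.13, a difference of 0.94.

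**Figure D2:**
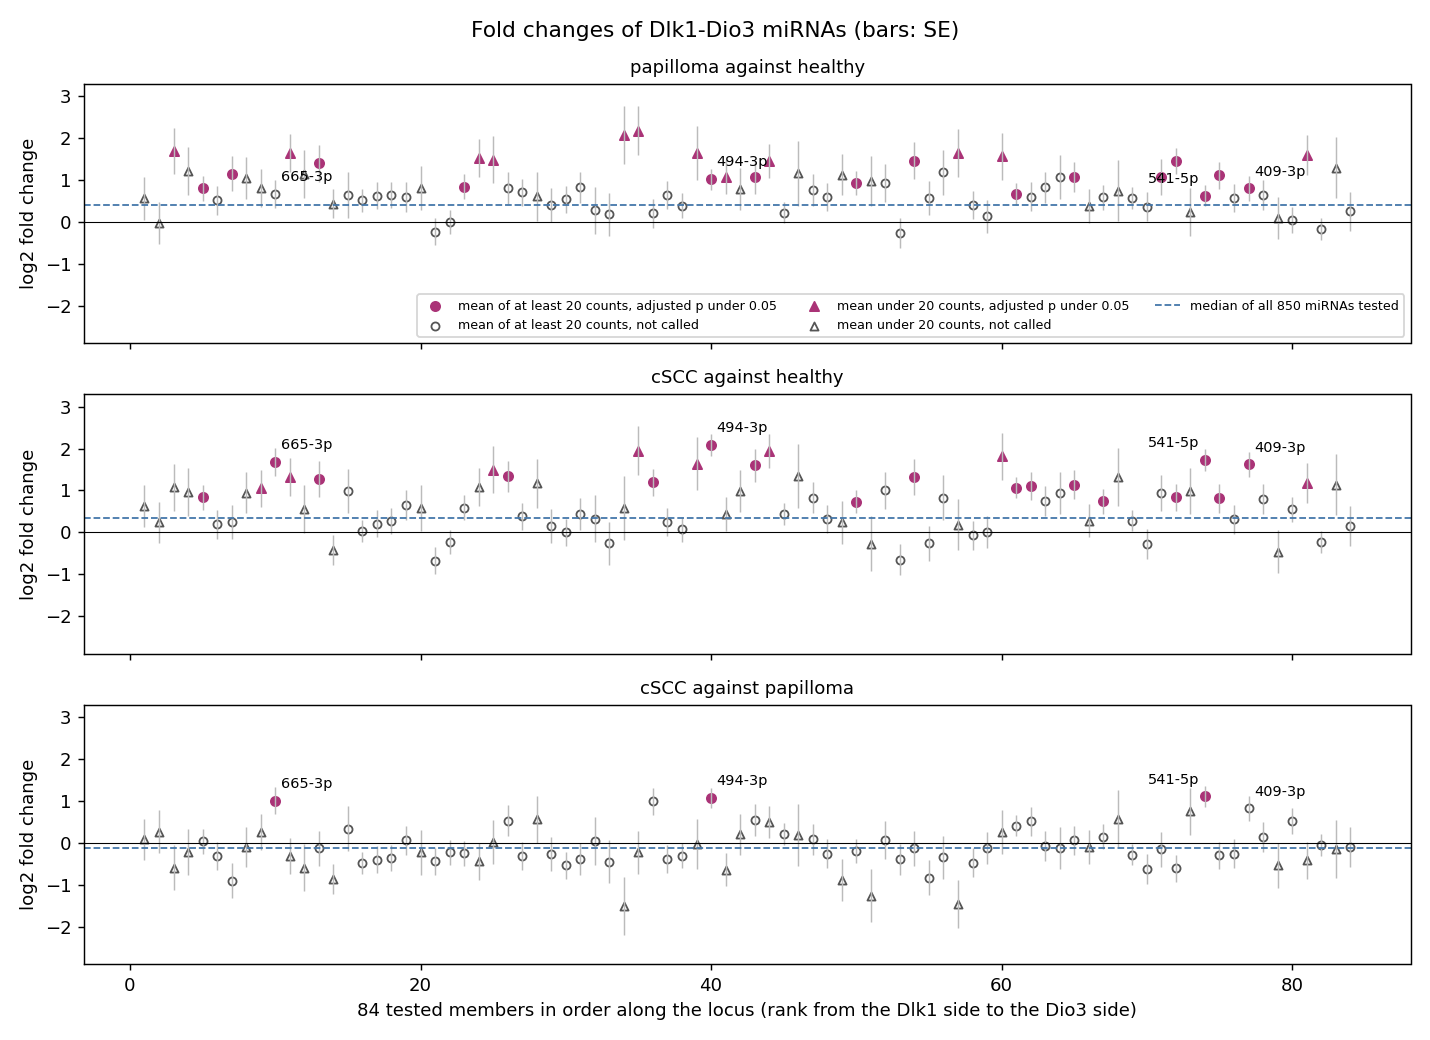
Log2 fold changes with their SE for the 84 members tested, in order along the locus, in papilloma and cSCC against healthy skin and in cSCC against papilloma. Filled symbols passed edgeR's test at an adjusted p under 0.05, triangles have a mean under 20 counts, and the dashed line is the median of all 850 miRNAs tested; in cSCC against papilloma the 3 filled symbols are miR-665-3p, miR-494-3p and miR-541-5p.

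Shares within the locus need no scaling between libraries. Of all member counts, miR-541-5p made up 5.51 ± 1.91% in healthy skin (SD, n = 5), 5.59 ± 1.05% in hyperplastic skin, 5.36 ± 0.778% in papillomas and 11.7 ± 3.54% in cSCC. For miR-494-3p the shares were 2.61 ± 0.817%, 2.20 ± 0.152%, 3.34 ± 0.796% and 6.73 ± 2.11%, and for miR-409-3p 4.13 ± 1.15%, 3.07 ± 1.11%, 4.65 ± 1.08% and 8.18 ± 1.43%. The opposite held for miR-136-5p, at 7.24 ± 1.42% in healthy skin, 5.92 ± 1.14% in hyperplastic skin, 4.02 ± 1.36% in papillomas and 2.92 ± 0.944% in cSCC. These shares add up to a whole, so a higher share of some members lowers that of others.

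Together, miR-541-5p, miR-494-3p, miR-409-3p and miR-665-3p held 21.1 to 37.5% of the locus counts in cSCC, with a median of 28.2%. The range was 7.54 to 17.1% in healthy skin, 8.50 to 13.7% in hyperplastic skin and 11.1 to 16.7% in papillomas. The 5 members miR-127-3p, miR-379-5p, miR-411-5p, miR-337-3p and miR-136-5p held 14.8 to 27.4% in cSCC, against 24.4 to 40.6% in healthy skin, which overlap. Both sets were put together after their values were seen, and no test was made of them. Set against miR-127-3p in the same library, miR-541-5p had 1.21 to 5.46 counts per count in cSCC and 0.333 to 1.30 in healthy skin. For miR-379-5p this ratio was 0.994 to 1.31 in cSCC and 0.705 to 1.35 in healthy skin, a narrower range than that of miR-541-5p. The ranges of miR-541-5p in cSCC and healthy skin overlapped.

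**Figure D3:**
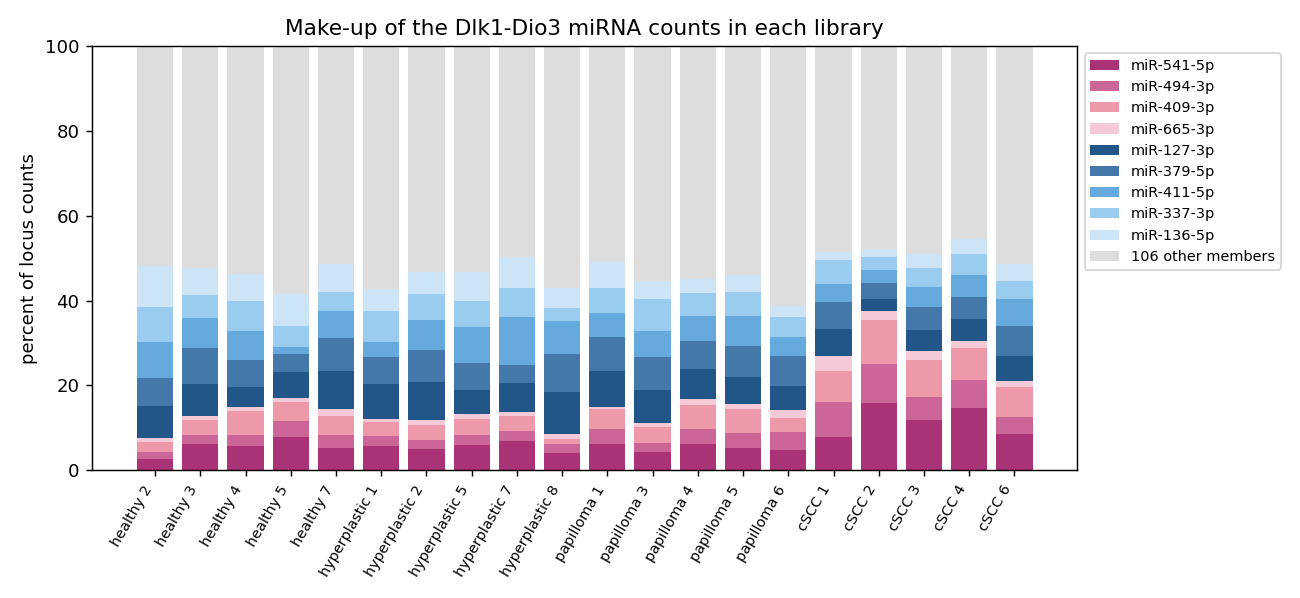
Percent of all locus counts in each of the 20 libraries taken by each of 9 abundant members and by all other members (grey). The red shades, miR-541-5p, miR-494-3p, miR-409-3p and miR-665-3p, add up to 21.1 to 37.5% in cSCC and to at most 17.1% in any other library.

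Against papillomas, cSCC differed in few members. Of the 84, 3 rose and none fell (edgeR's quasi-likelihood test), beside 6.82% of all miRNAs upward and 4.71% downward; 3.57% of the members rose. At an unadjusted p under 0.05, 5 members were higher and 4 lower, and DESeq2 called 4 higher and 0 lower. The 3 were miR-541-5p, with a log2 fold change of 1.11 ± 0.25 (SE; adjusted p = 0.00439), miR-494-3p, with 1.07 ± 0.25 (0.00572), and miR-665-3p, with 1.01 ± 0.33 (0.0467). The calls of miR-541-5p and miR-494-3p held in every alternative run, while miR-665-3p fell to 0.70 (adjusted p = 0.208) without cSCC library 1 and was also lost without papilloma library 1 or 3, and in 5 of 25 alternatives in all. Without hyperplastic library 8, healthy library 4 or healthy library 5, the count was 5. For miR-409-3p the value was 0.82 ± 0.30, which did not pass (0.0824). The same tumour libraries enter the comparisons with healthy skin.

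In papillomas against healthy skin, 27 of the 84 members rose and none fell (edgeR's quasi-likelihood test), beside 24.0% of all miRNAs upward and 20.7% downward. No member was lower at an unadjusted p under 0.05, and DESeq2 called 0 lower. The members' share of 32.1% is not far from the background, and 12 of the 27 had a mean under 20 counts. The median log2 fold change was 0.75 over the members tested and 0.40 over all miRNAs. Under the scaling from abundant miRNAs 66 members rose, beside 48.1% of all miRNAs. The number rested on single libraries: it was 5 without papilloma library 6, the shallowest of all, 10 without papilloma library 4 or 5, and 13 to 15 without hyperplastic library 2, healthy library 4, 5 or 7, or cSCC library 4 or 6. The share of all miRNAs called in those runs is not given here.

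Among the 8 named members called in that comparison, miR-496-3p was the one whose call was lost in no alternative. Healthy libraries had 13.4, 11.1, 16.2, 6.06 and 9.32 CPM and papillomas 29.5, 47.3, 14.3, 39.7 and 21.5 CPM, with papilloma library 4 inside the healthy range. Hyperplastic libraries had 21.4, 19.1, 25.8, 18.3 and 20.8 CPM and cSCC 22.00, 11.2, 22.6, 19.2 and 25.4 CPM. The log2 fold change in papillomas was 1.45 ± 0.32 (SE; adjusted p = 0.00116, edgeR's quasi-likelihood test), and 25 alternatives were run. For miR-494-3p it was 1.02 ± 0.25 (adjusted p = 0.00241), lost only without the filter on low counts. For miR-376b-3p it was 1.46 ± 0.44 (0.00987), lost in 3 of 25, without papilloma library 5 among them, and for miR-431-5p 1.40 ± 0.44 (0.0125), lost in 4 of 25, without papilloma library 1 or 6 among them. The calls of miR-541-5p, at 0.62 ± 0.25 (0.0453), and miR-409-3p, at 0.80 ± 0.30 (0.0333), were lost in 23 and 22 of 26 alternatives.

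In hyperplastic skin against healthy skin, no member passed the threshold, nor did any of the 850 miRNAs (0% called; edgeR's quasi-likelihood test). The smallest adjusted p among the members was 0.442, and DESeq2 called 0. At an unadjusted p under 0.05, 17 of the 84 members were higher and 0 lower (20.2% higher), beside 5.65% higher and 3.18% lower of all miRNAs. Of the 84 members, 72 had a positive log2 fold change, and their median was 0.55, beside -0.01 over all miRNAs. Without healthy library 5 the members' median was 0.26 and that of all miRNAs -0.10, and without hyperplastic library 8 they were 0.33 and -0.11. The summed level of the locus was 2912 to 3138 CPM in hyperplastic skin and 1100 to 2524 CPM in healthy skin. In the members' levels, 3 of the 84 did not overlap and were higher in hyperplastic skin, beside 0.706% of all miRNAs: miR-494-3p, miR-496-3p and, named after its values were seen, miR-337-5p.

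The largest of these uncalled values belonged to miR-1247-5p, the member nearest Dio3, which lies in Dio3os (chr12:111516303-111516326, mm9, minus strand). Its hyperplastic libraries had 275, 307, 235, 58.6 and 74.2 CPM and its healthy libraries 48.7, 58.5, 162, 31.9 and 18.98 CPM. Papillomas had 123, 68.5, 39.6, 62.4 and 86.2 CPM and cSCC 59.7, 51.5, 95.9, 70.7 and 76.3 CPM. Hyperplastic libraries 1, 2 and 5 were above all 17 others, and hyperplastic libraries 7 and 8 lay within the range of the other groups. The log2 fold change in hyperplastic against healthy skin was 1.57 ± 0.48 (SE), with an adjusted p of 0.442 in edgeR's quasi-likelihood test. Its sequence stands on the opposite strand to most of the locus.
miR-1247-5p: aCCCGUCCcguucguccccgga

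Against hyperplastic skin, papillomas had 12 members higher and 2 lower of 84 (edgeR's quasi-likelihood test), beside 21.3% and 17.1% of all miRNAs. The members' shares were 14.3% and 2.38%, both under the background, and 10 of the 12 had a mean under 20 counts. The 2 that fell were miR-1247-5p, with a log2 fold change of -1.32 ± 0.48 (SE; adjusted p = 0.0314), and miR-376b-5p, with -0.99 ± 0.36 (0.0344). Under the scaling from abundant miRNAs they were -0.85 and -0.48 and did not pass (adjusted p = 0.168 and 0.276), while 31 members rose beside 36.6% of all miRNAs, and without hyperplastic library 8 miR-376b-5p was -0.59 (0.203). Among members of at least 20 counts, miR-540-5p and miR-541-3p rose, with 1.04 ± 0.40 (0.0427) and 0.88 ± 0.33 (0.0376). These calls were lost in 14 and 12 of 25 alternatives, with values down to 0.59 and 0.46. Upward calls numbered 5 without papilloma library 6 and 7 without hyperplastic library 2, healthy library 4, or cSCC library 4 or 6. Downward calls numbered 1 without hyperplastic library 1, 5, 7 or 8 or papilloma library 4, 5 or 6.

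Against hyperplastic skin, cSCC had 14 members higher and 6 lower (edgeR's quasi-likelihood test), beside 24.5% and 20.5% of all miRNAs; the members' shares were 16.7% and 7.14%. The rises again included miR-494-3p, with a log2 fold change of 1.61 ± 0.25 (SE; adjusted p = 1.49e-05), miR-409-3p, with 1.39 ± 0.30 (0.000719), miR-370-3p, with 1.22 ± 0.37 (0.00897), miR-665-3p, with 1.17 ± 0.33 (0.00596), and miR-541-5p, with 1.01 ± 0.25 (0.00213). The cSCC libraries are the same as in the comparison with healthy skin. The 6 that fell were miR-1247-5p, miR-376b-5p, miR-154-5p, miR-136-5p, miR-431-3p and miR-329-3p, of which miR-431-3p was named after its values were seen. All 6 falls were lost under the scaling from abundant miRNAs, where 30 of the 84 members rose, beside 43.1% of all miRNAs, and 0 members fell. Without hyperplastic library 5 or cSCC library 2, 3 members fell.

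Among those falls, miR-136-5p, from a hairpin opposite Rtl1, had 153, 167, 215, 215 and 143.0 CPM in hyperplastic skin and 71.2, 47.03, 86.1, 102 and 137 CPM in cSCC. Healthy libraries had 227, 159.8, 133.1, 82.6 and 107 CPM and papillomas 183, 144, 90.1, 120.5 and 64.6 CPM. Every cSCC library was below every hyperplastic library. The log2 fold change in cSCC against hyperplastic skin was -1.01 ± 0.32 (SE; adjusted p = 0.0118, edgeR's quasi-likelihood test), and -0.41 (0.207) under the scaling from abundant miRNAs. For miR-154-5p it was -1.20 ± 0.36 (0.00839) and for miR-376b-5p -1.38 ± 0.37 (0.00387). Against healthy skin, miR-136-5p in cSCC was -0.68, which did not pass (adjusted p = 0.0758).

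Over the 4 groups at once, 32 of the 84 members passed (edgeR's quasi-likelihood test), beside 56.0% of all miRNAs. Without papilloma library 5, papilloma library 6 or cSCC library 6 the number was 21, 18 and 21. In cSCC against healthy skin, 5 of 18 members tested of the hairpins around Rtl1 rose, with a median log2 fold change of 0.57, and 18 of 56 of the run from miR-379 to miR-3072, with a median of 0.74, beside 26.2% of all miRNAs. The 2 arms of miR-1247 had 0 calls against healthy skin. In papillomas the same counts were 4 of 18 and 19 of 56, beside 24.0% of all miRNAs.

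**Figure D4:**
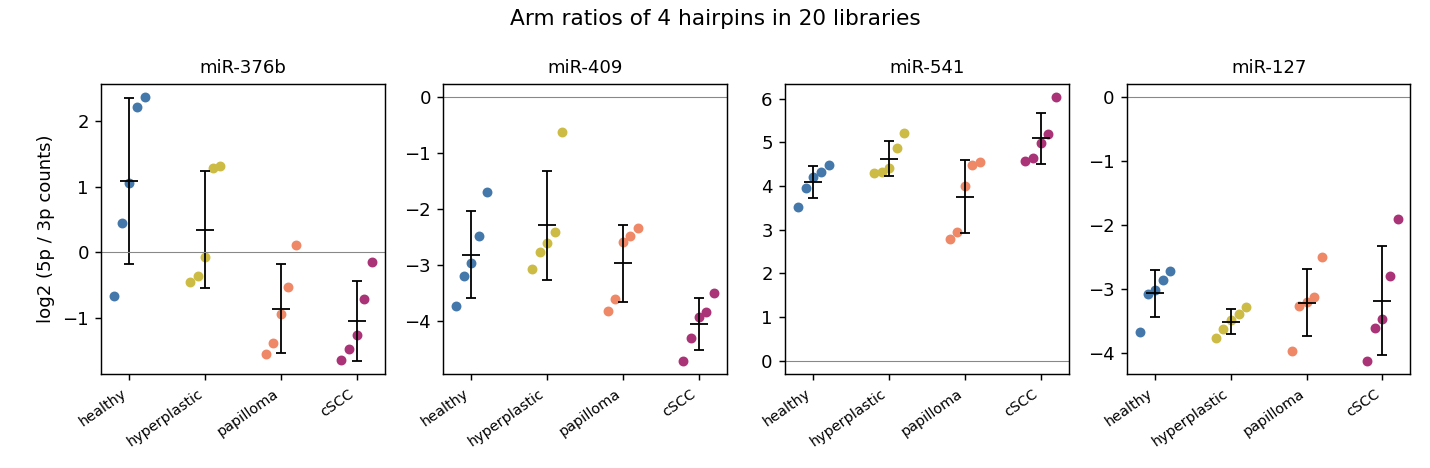
Log2 ratio of 5p to 3p counts for the 3 hairpins that passed the test and for miR-127, which did not; each point is a library, 5 per group and ordered by value, with the mean and SD as black bars and a grey line at equal arms. For miR-409 the cSCC libraries lie between -4.72 and -3.50, and for miR-376b between -1.64 and -0.15.

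The 2 arms of a hairpin are counted in the same library, so their ratio does not depend on scaling between libraries. Among 13 hairpins of the locus with a mean of at least 20 counts in each arm, the log2 ratio of 5p to 3p differed across the 4 groups in 3 (limma, adjusted over 152 hairpins), beside 29.6% of all hairpins tested. For miR-376b, the values were 1.05, 0.45, -0.67, 2.37 and 2.21 in healthy skin and -1.48, -0.15, -1.64, -0.71 and -1.26 in cSCC, with overlap at healthy library 4. Its group means were 1.08 in healthy skin, 0.34 in hyperplastic skin, -0.87 in papillomas and -1.05 in cSCC (adjusted p = 0.0125, limma). On average the 3p arm led in both tumour groups and the 5p arm in healthy skin. Hyperplastic libraries had -0.37, 1.29, -0.45, -0.08 and 1.32, so their positive mean rested on libraries 2 and 8. The difference from hyperplastic skin did not pass in papillomas (adjusted p = 0.152, limma) or in cSCC (0.057).
miR-376b-5p: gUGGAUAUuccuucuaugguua
miR-376b-3p: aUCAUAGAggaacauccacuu

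For miR-409, the 3p arm led everywhere and most in cSCC. Its ratios were -1.70, -2.97, -3.20, -3.74 and -2.49 in healthy skin, -2.62, -2.77, -3.07, -2.41 and -0.62 in hyperplastic skin, -2.60, -2.34, -3.83, -3.62 and -2.49 in papillomas and -4.31, -4.72, -3.84, -3.50 and -3.94 in cSCC. The ranges of cSCC and papilloma or healthy skin overlapped (adjusted p = 0.0236 across the groups, limma). The 5p arm itself was at 11.8 ± 5.24 CPM in the healthy libraries and 14.7 ± 3.80 CPM in cSCC (SD, n = 5), against 78.7 ± 28.8 and 242.6 ± 24.6 CPM for miR-409-3p. For miR-541 the 5p arm led everywhere, with mean log2 ratios of 4.10, 4.63, 3.76 and 5.09 in healthy skin, hyperplastic skin, papillomas and cSCC (adjusted p = 0.0274, limma). The counts rest on single libraries: miR-541 was lost without papilloma library 3 or 6 or cSCC library 3 or 4, miR-409 without cSCC library 1, 2 or 3, and the number was 1 without cSCC library 3. The other 10 hairpins, miR-127, miR-136, miR-337 and miR-411 among them, did not pass.

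Some members overlap on opposite strands, and the sources used here do not say whether reads were counted by strand. There are 5 such pairs, and in 4 of them 1 member is far more abundant. For example, miR-136-5p had a mean of 431.3 counts and miR-3071-3p, opposite it, 5.70, and miR-337-3p had 480.5 and miR-3544-5p 5.70. The pair miR-299-3p and miR-299b-5p had means of 28.4 and 21.1. Their counts differed within libraries, at 59 and 13 in hyperplastic library 8 and at 2 and 18 in cSCC library 3. Thus the 2 are not the same reads counted for both members. How reads were assigned to either of them was not tested.

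The window also holds 11 other features of the table, all snoRNAs. Only 1 had a mean above a few counts, FR060513 (chr12:110919010-110919084, mm9), with 97, 180, 19, 26 and 39 counts in healthy skin, 242, 273, 125, 207 and 180 in hyperplastic skin, 162, 108, 36, 64 and 24 in papillomas and 86, 20, 29, 25 and 12 in cSCC. It was 21.5 ± 19.5 CPM in healthy skin (SD, n = 5), 50.3 ± 14.7 in hyperplastic skin, 33.8 ± 22.4 in papillomas and 13.6 ± 10.6 in cSCC. Thus its mean was highest in hyperplastic skin, and it did not follow miR-541-5p or miR-494-3p into cSCC.

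Levels of miRNAs listed by cell type differed between the groups, and in bulk tissue fewer cells of a type and less RNA per cell cannot be told apart. The summed level of 13 striated muscle miRNAs was 19490 to 78090 CPM in healthy skin, 16590 to 50580 in hyperplastic skin, 1830 to 9284 in papillomas and 1596 to 3677 in cSCC; 5 of the 8 tested fell and 2 rose in cSCC against healthy skin. All 4 smooth muscle miRNAs and 6 of 8 fibroblast miRNAs fell in that comparison, beside 21.3% of all miRNAs downward and 26.2% upward. The 2 endothelial miRNAs also fell, as did 3 of 7 tested neural and glial ones, and none in these lists rose. The 10 leukocyte miRNAs summed to 19090 to 36220 CPM in healthy skin and 47770 to 109700 in cSCC, with 1 risen and 2 fallen of 8 tested. The 4 keratinocyte miRNAs, the defining cells of epidermis, summed to 146800 to 241100 CPM in healthy skin and 71300 to 138000 in cSCC, and none was at 0 in all libraries. Of these 4, 3 fell and 0 rose in cSCC against healthy skin. The part of these differences in the members' levels was not tested. A list of miRNAs from imprinted loci elsewhere includes the Sfmbt2 cluster, a single locus with many miRNAs, so its counts do not describe separate loci. Of its 74 tested, 27 rose in papillomas and 61 in cSCC against healthy skin, beside 24.0% and 26.2% of all miRNAs.

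**Figure D5:**
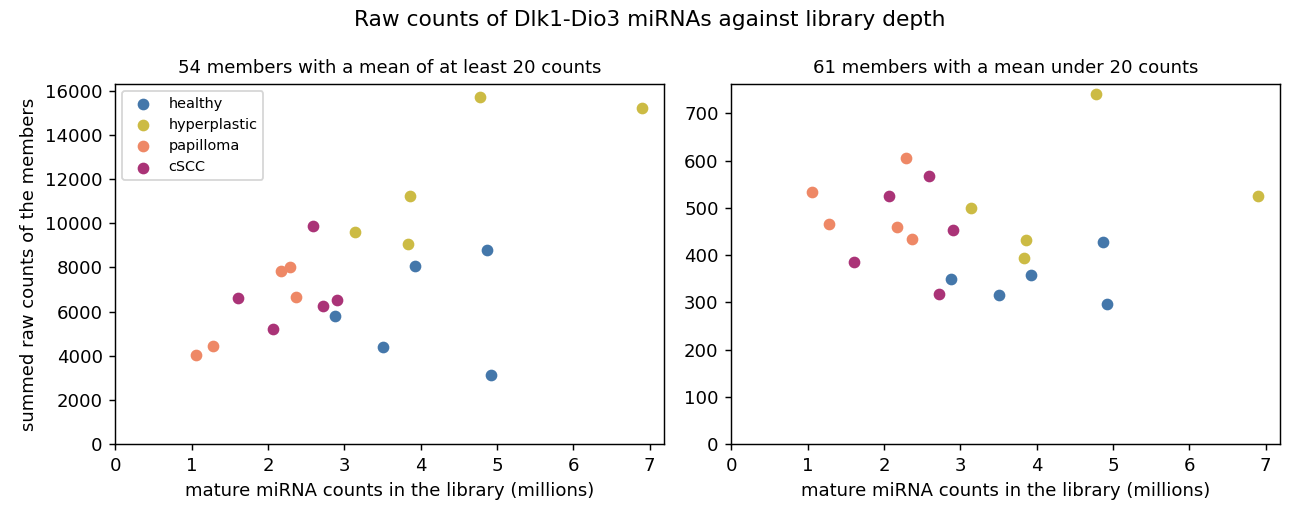
Summed raw counts of the 54 more abundant members (left) and of the 61 with a mean under 20 counts (right) in each library against that library's total of mature miRNA counts, coloured by group. The sums of the 61 run from 297 to 741 while the totals run from 1060615 to 6904298, and the shallow papilloma libraries lie above the deeper healthy ones.

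The 61 members with a mean under 20 counts summed to 297 to 428 counts in the healthy libraries and 435 to 606 in papillomas, although the papilloma libraries were the shallower ones. Scaled, that was 94.7 to 122.6 CPM in healthy skin, 99.2 to 144.6 in hyperplastic skin, 183 to 302 in papillomas and 141.8 to 212 in cSCC. Papilloma library 6, with the fewest miRNA counts, had the highest scaled sum. Of these rare members 30 were tested, and 12 rose in papillomas and 8 in cSCC against healthy skin, beside 15 and 17 of the 54 with a mean of at least 20 counts and 24.0% and 26.2% of all miRNAs. The filter on low counts keeps a rare miRNA mainly where it is high in some group, so these calls do not describe all 61. Without that filter, 4 members of any abundance rose in papillomas and 14 in cSCC against healthy skin. The parts of depth and of the filter in these calls were not tested.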

How the data were processed

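Total RNA of 20 skin biopsies was extracted with the Qiagen miRNeasy kit, and NEBNext libraries for SOLiD were size-selected on gels, per the labels' protocols. The values deposited by the authors are raw counts for each feature; the build was mm9, per the submitters' processing notes. For the aligner, the counting of reads that match several places, and strand, the sources used here give nothing.

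All mature miRNAs passing edgeR's filterByExpr by group (850 of 1137) were fitted in 1 model over the 20 libraries (edgeR 4.0.16, TMM, quasi-likelihood F test, two-sided, Benjamini-Hochberg over all 850, threshold 0.05). Arm ratios, log2 of (5p + 0.5) over (3p + 0.5), were fitted with limma 3.58.1 for all hairpins with a mean of at least 20 counts per arm. The script was tested on simulated data. Named were the 12 most abundant members, in each comparison the 3 largest called changes each way among members of at least 20 counts, 13 well-known members and the called arm ratios. Members and lists were chosen with earlier results of these data known. Alternatives were other scalings and filters, DESeq2 1.42.0, a replicate block and leaving out each library.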

Additional observations from a re-analysis of the deposited data

Results flagged for a closer look

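In 9 of 108 groups of 5 libraries that were examined, the highest or lowest library stood away from the rest by more than Dixon's 95% critical value of 0.71 for the gap over the range; chance alone gives about 1 in 20. All values are CPM. In hyperplastic skin, library 8 was low for miR-337-3p (97.6, others 183 to 213) and for miR-409-3p (33.6, others 94.9 to 116). In papillomas, library 3 was low for miR-494-3p (67.3, others 100.4 to 107) and library 1 for miR-329-3p (51.4, others 76.7 to 83.2). In cSCC, library 1 was high for miR-665-3p (134, others 50.2 to 56.6), without which that miRNA's call against papillomas was lost, as it was without papilloma library 1 or 3. In healthy skin, library 4 was high for miR-1247-5p (162, others 19.0 to 58.5), library 5 low for miR-136-3p (17.9, others 48.8 to 60.9), and library 2 high for miR-154-5p (55.9, others 22.4 to 27.0) and miR-540-5p (11.3, others 3.80 to 5.70).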

How the results depend on the processing

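The number of members called depended on the scaling, the filter on low counts, the replicate block and single libraries, while no called change of a named member reversed its direction under any alternative run. Here and in the sections above, some of these counts stand without the share of all miRNAs called in the same run. Where that share is not given, a lower or higher count need not be particular to the members. With TMM factors from abundant miRNAs, upward calls were 66 in papilloma and 59 in cSCC against healthy skin, 31 and 30 against hyperplastic skin, and 62 across the groups; downward calls against hyperplastic skin were 0 and 0. With no filter on low counts, upward calls were 4 and 14 against healthy skin and 6 and 7 against hyperplastic skin, downward calls 6 and 11 against hyperplastic skin, 1 in cSCC against healthy skin and 1 against papilloma, and 20 across the groups. Among abundant miRNAs alone, upward calls were 12 and 11 of the 15 members against healthy skin, beside 30.6% and 36.4% of the 294 tested. Against hyperplastic skin they were 2 and 3 of the 15, beside 15.3% and 27.2%. Downward calls were 0, beside 20.7% and 26.2% of the 294 against healthy skin and 12.9% and 23.1% against hyperplastic skin. Across the groups 11 passed. DESeq2 size factors gave 17 upward in papilloma and 1 downward in cSCC against healthy skin, and DESeq2 gave 1 downward in the latter.

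Same-numbered libraries of different groups had correlations of deviations from -0.17 to 0.23, with 3 of 17 above 0.1. Differently numbered libraries ranged from -0.4 to 0.31, so the same-numbered ones did not stand out. Weak correlations cannot show that no animals were shared, and the labels do not say, so pairing by replicate number remains undecided. With the replicate block, upward calls were 10 and 11 in papilloma and cSCC against healthy skin, 1 in hyperplastic against healthy skin, 2 and 4 against hyperplastic skin, with 1 and 1 downward, 1 downward in cSCC against papilloma, 11 across the groups, and 0 arm ratios. The share of all miRNAs called with that block is not given here.

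Leaving out each library in turn, upward calls ranged from 0 to 1 in hyperplastic skin, 5 to 24 in papilloma and 14 to 26 in cSCC against healthy skin, 2 to 5 in cSCC against papilloma, and 5 to 16 in papilloma and 10 to 19 in cSCC against hyperplastic skin. Downward calls ranged from 0 to 2 in cSCC against healthy skin, and 1 to 3 in papilloma and 3 to 9 in cSCC against hyperplastic skin. Across the groups the range was 18 to 31, for arm ratios 1 to 4. The locus share ranged from 0.152 to 0.188% in healthy skin, 0.274 to 0.303% in hyperplastic skin, 0.360 to 0.393% in papilloma and 0.290 to 0.339% in cSCC. Requiring 50 counts per arm left 7 hairpins of the locus to test, of which 1 passed, miR-376b. Because miR-409 and miR-541 each have an arm below that mean, they were not tested there. Without the 5 most abundant miRNAs in the total, the shares were 0.262, 0.481, 0.732 and 0.591%, and over all small RNA features 0.173% in hyperplastic skin and 0.269% in papilloma. The cause of these changes was not tested. Depth limits the 61 members under 20 mean counts, of which 31 could not be tested.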

Other observations

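In hyperplastic library 2, miR-376a-3p and miR-376c-3p, neighbours in the run from miR-379, stood at 4.01 and 1.15 CPM (21 and 6 counts), while the other 4 hyperplastic libraries had 44.6 to 86.7 and 12.99 to 23.9 CPM. The same library had 17.2 CPM of miR-376b-3p, against 29.1 to 37.8 in the others, and the highest locus total of all 20 libraries, 16429. The log2 ratio of the arms of miR-376a was 1.56 there and -3.16 to -1.82 in the other hyperplastic libraries. These members were singled out after their values were seen.

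In healthy library 5, miR-411-5p was at 19.1 CPM, against 101.8 to 204 in the other healthy libraries, and miR-433-3p at 0.638 CPM, against 3.80 to 19.3. In the same library miR-494-3p was at 41.8 CPM, inside the range of 39.4 to 56.5 of the others, so the low locus total of that library was not shared by all members.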
